A study of Homo sapiens with 2 samples.

Results

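The small heat shock proteins and the BAG co-chaperones were compared between HepG2 cells under fluid shear stress (FSS) and HepG2 cells in static culture. The members were taken by gene symbol from the deposited transcript table, namely the small heat shock protein genes HSPB1, CRYAB and HSPB8, the gene HSPB11, and BAG1, BAG2, BAG3, BAG4, BAG5 and BAG6. All 10 were listed, out of 11589 genes in the table, and they held 44 of its 34714 transcripts. HepG2 is an established human line of liver cancer origin. FSS, the friction that flowing liquid exerts on a cell, was applied here as a laminar flow for 8 h, with static culture as the control. Both groups were unmodified HepG2 at passage 10 to 15. Each group was 1 library of RNA mixed from 3 replicates, so the spread between cultures is not known and no p-value is given.

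Levels are in FPKM, the fragments per kilobase of transcript and per 1000000 mapped fragments, which are comparable between genes because they are per length. The FPKM in the table added up to 325712 for static culture and 323352 for FSS, and how many reads lie behind them is not known. In both libraries the epithelial keratins KRT8 and KRT18 were abundant, at 302 and 265 FPKM in static cells and 202 and 275 FPKM in FSS cells. The hepatocyte genes CPS1 (442 FPKM under static culture, 119 FPKM under FSS) and ASS1 (243 and 162 FPKM) were also abundant, and FOXA1 was at 5.69 and 7.41 FPKM. Of 12 hepatocyte markers looked up, these 3 were the ones listed. The table thus does not hold every gene, and shares of all genes below are over the listed genes. The 3 fibroblast markers that were listed summed to 29.8 FPKM under static culture and 6.36 FPKM under FSS, and their part in the values below was not tested. COL1A1 carried that sum, at 28.0 and 5.15 FPKM, and DCN was listed at 0 in the static library and at 0.907 FPKM under FSS. The single listed markers of leukocytes and of endothelium were under 1 FPKM in both libraries.

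Small heat shock proteins are ATP-independent chaperones that bind unfolding proteins and hold them until other chaperones can act on them. Most BAG proteins carry a BAG domain that binds the nucleotide-binding part of HSP70 and makes it release ADP and its client. Their other regions link HSP70 to different fates. BAG3 joins the families, since it binds HSPB8 and other small heat shock proteins as well as HSP70 and takes damaged clients to autophagy, a pathway best known for filamin in muscle under mechanical load. HSPB1 and BAG3 are classic targets of the heat shock factor HSF1, which binds heat shock elements made of inverted GAA repeats.

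The stretches before the start sites of BAG3, HSPB1, HSPB8 and BAG2 are shown first, because the first 3 of these genes had higher levels in FSS and BAG2 serves as a member with little difference. The letters searched for were GAANNTTC and TTCNNGAA, each a pair of inverted GAA units that reads the same on both strands, and TGANTCA, the core of the site bound by AP-1 factors. Capitals mark a match. The sequences are on the plus strand of GRCh38.p14 from RefSeq, a later build than the hg19 of the expression values, and lie before the first start annotated by RefSeq or GENCODE 29. HSPB8 is the exception, since its window lies inside the longer GENCODE 29 transcript, so only 30 bases around the match are given. BAG3 (chr10:119651130-119651369) is shown for its AP-1 match, and HSPB1 (chr7:76302423-76302543), HSPB8 (chr12:119178832-119178861) and BAG2 (chr6:57172076-57172325) for a GAANNTTC match.
BAG3: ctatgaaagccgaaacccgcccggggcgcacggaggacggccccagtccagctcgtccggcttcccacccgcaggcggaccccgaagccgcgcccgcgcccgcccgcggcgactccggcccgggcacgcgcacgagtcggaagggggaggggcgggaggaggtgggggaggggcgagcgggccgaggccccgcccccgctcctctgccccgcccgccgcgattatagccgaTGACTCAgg
HSPB1: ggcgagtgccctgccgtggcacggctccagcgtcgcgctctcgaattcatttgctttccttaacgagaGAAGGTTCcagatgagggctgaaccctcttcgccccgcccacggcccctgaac
HSPB8: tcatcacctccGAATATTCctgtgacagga
BAG2: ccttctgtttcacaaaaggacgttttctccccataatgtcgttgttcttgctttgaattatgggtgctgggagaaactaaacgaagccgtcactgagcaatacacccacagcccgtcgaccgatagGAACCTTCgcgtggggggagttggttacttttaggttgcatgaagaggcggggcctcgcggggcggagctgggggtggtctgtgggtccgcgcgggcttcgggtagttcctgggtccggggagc

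Windows of 300 bases, 250 before and 50 after a RefSeq start, were found for 7 of the 10 members, with 9 windows in all. GAANNTTC was present in HSPB1, HSPB8 and BAG2, with its first base at positions -182, -88 and -124 from the start, and HSPB8 held another, GAAGTTTC, from base 5 after it. Among all 35116 windows, 6.77% held GAANNTTC and 7.74% held TTCNNGAA, which was in none of the members' windows. The BAG3 window held neither GAANNTTC nor TTCNNGAA, and bases outside the windows were not searched. It held TGACTCA from position -19, a match to TGANTCA that 7.71% of all windows contain. The windows of BAG1, BAG5 and BAG6 held none of these motifs. Because the motifs were chosen after the windows were seen, the shares of all windows do not test the matches.

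To address how the 2 families changed under FSS, each gene was taken as the sum of its transcripts and compared by its log2 ratio (FSS over static, on FPKM + 1). Folds are on the same scale, where adding 1 shrinks the change of genes with few FPKM. BAG3, CRYAB and HSPB1 were past 1.5-fold upwards in the FSS library, and the other 7 members lay within 1.5-fold. Of 11221 genes with at least 0.5 FPKM in a library, 10.5% were higher by 1.5-fold or more and 29.5% lower, against 3 of 10 members higher and 0 lower. The median log2 ratio was 0.088 over the members and -0.25 over all genes, and all 10 members lay above the median of all genes. BAG5, BAG6 and HSPB11 were close to that median, at -0.22, -0.21 and -0.17. After centring, that is after subtracting -0.23, the median over genes of 5 FPKM or more, 4 members were higher and 0 lower, beside 17.8% and 17.9% of all genes, and the added member was HSPB8. The members are few and were chosen with earlier results of these data known, so nothing is read from these counts beside the shares. In a mixed RNA sample a smaller number of cells with a transcript and less of it per cell cannot be told apart.

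**Figure D1:**
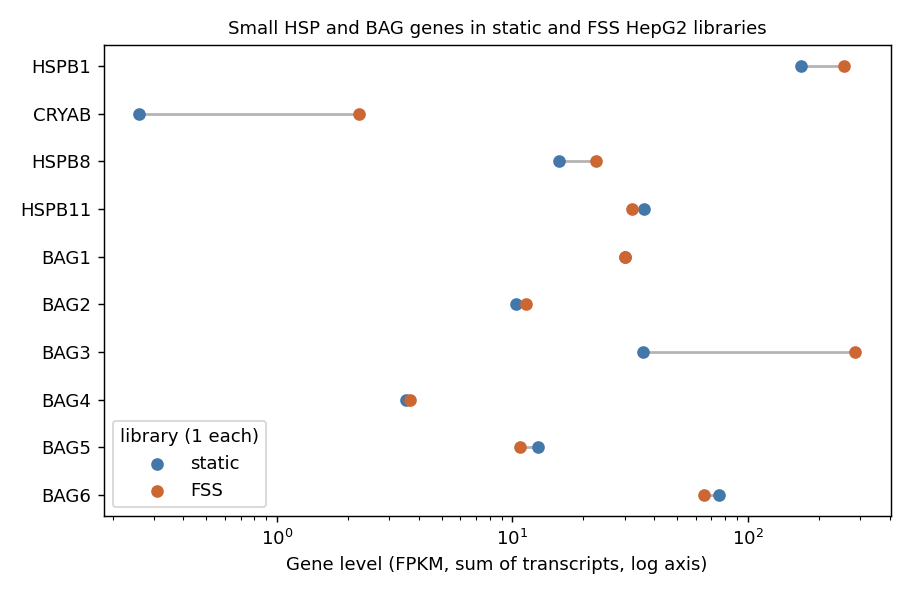
Level of each member gene in FPKM, summed over its transcripts, on a log axis, with 1 point for the static library and 1 for the FSS library. BAG3 moved from 36.0 to 285 FPKM and CRYAB from 0.260 to 2.22 FPKM, while the points of BAG1 coincide at 30.2 FPKM.

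**Figure D2:**
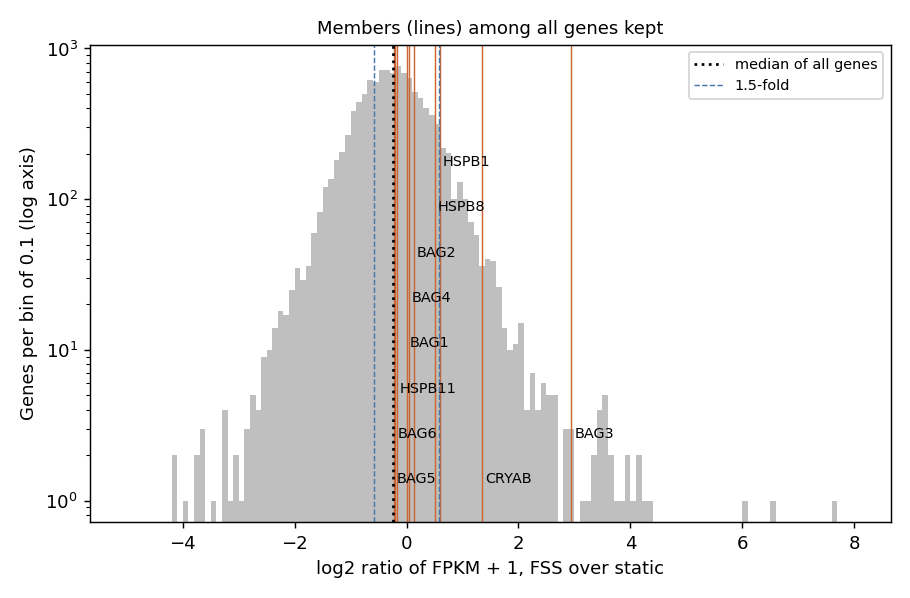
Histogram of the log2 ratio of FPKM + 1, FSS over static, for the 11221 genes kept, with the count of genes on a log axis. Orange lines mark the 10 members, the dotted line the median of all genes at -0.25, and dashed lines 1.5-fold in each direction. BAG3 stands far to the right at 2.95 and the other BAG genes lie close to the centre.

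BAG3 was by far the most changed member. BAG3 (ENSG00000151929) was at 36.0 FPKM under static culture and 285 FPKM under FSS, a log2 ratio of 2.95 or 7.71-fold on the FPKM + 1 scale. It ranked 29 of the 11221 genes from the highest ratio, so that 0.258% of genes were at least as high. Both of its listed transcripts contributed. BAG3-201, whose GENCODE 29 record of that name carries no tag of an incomplete end, was at 33.9 FPKM under static culture and 261 FPKM under FSS. BAG3-202, whose record of that name in GENCODE 29 begins 5240 bases downstream with another first exon and has an incomplete end, was at 2.103 FPKM under static culture and 24.0 FPKM under FSS. The transcript ratios were 2.90 and 3.01, and BAG3-201 held 94.2% of the gene in static cells and 91.6% in FSS cells. The higher level of BAG3 was thus present in both forms, which share part of their sequence and whose split is an estimate.

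The other BAG genes differed little between the libraries. BAG1, an exchange factor that also binds the proteasome, was at 30.2 FPKM in both static and FSS cells, a log2 ratio of 0.0010. BAG2, an inhibitor of the HSP70-linked ubiquitin ligase CHIP, was at 10.3 FPKM under static culture and 11.4 FPKM under FSS. BAG4, known as a silencer of death domains that binds the TNF receptor TNFRSF1A, was at 3.54 and 3.67 FPKM, the lowest of the BAG genes in both libraries. The levels of BAG1, BAG2 and BAG4 were thus nearly the same in both libraries. BAG5, which carries several BAG domains, was at 12.8 FPKM under static culture and 10.8 FPKM under FSS. BAG6, a large scaffold that guards newly made membrane proteins and hands failed ones to degradation, was at 75.7 and 65.4 FPKM. Over these 5 genes the log2 ratio ran from -0.22 to 0.14. BAG5 and BAG6 were below 0 as deposited, at -0.22 and -0.21, but at 0.0076 and 0.024 after centring, so their direction depends on the scaling.

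The make-up of the BAG pool changed accordingly. In static cells the order from the highest level was BAG6, BAG3, BAG1, BAG5, BAG2 and BAG4. In FSS cells BAG3 came first, followed by BAG6, BAG1, BAG2, BAG5 and BAG4. BAG5 and BAG2 exchanged places on a difference of at most 2.47 FPKM, for which no spread between cultures is known. The 6 genes summed to 169 FPKM under static culture and 406 FPKM under FSS, a ratio of 2.41. Without BAG3 the sum was 133 FPKM under static culture and 122 FPKM under FSS, a ratio of 0.917. BAG3 held 21.4% of BAG FPKM in static cells and 70.1% in FSS cells, while BAG6 went from 44.9% to 16.1% and BAG1 from 17.9% to 7.43%. The shares of the other genes were lower in FSS because the sum was larger, while their own levels were close to static.

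**Figure D3:**
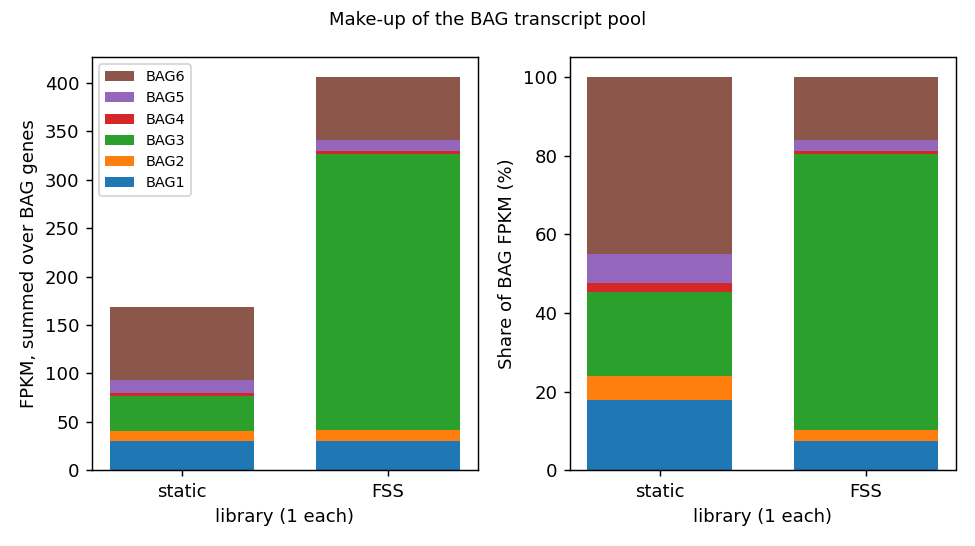
FPKM of the 6 BAG genes stacked for the static and the FSS library (left) and the same as percent of their sum (right), with 1 library per bar. BAG3 grows from 21.4% to 70.1% of the pool, and the other 5 genes together stay near 133 and 122 FPKM.

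Among the small heat shock proteins, all 3 had more FPKM in the FSS library, by different amounts, and HSPB1 and CRYAB were past 1.5-fold. HSPB1 (ENSG00000106211), also called HSP27, which caps actin filaments in some of its forms and is one of the most abundant small heat shock proteins, was at 169 FPKM under static culture and 256 FPKM under FSS. That log2 ratio of 0.60 is 1.51-fold, just past the mark. HSPB1-201 was at 158 FPKM under static culture and 246 FPKM under FSS, whereas HSPB1-202, shorter and with an internal start in the GENCODE 29 record of that name, was at 10.3 and 9.76 FPKM. The higher level of HSPB1 therefore lay in its main transcript, which held 93.9% of the gene in static cells and 96.2% in FSS cells. HSPB8, the small heat shock protein that forms a stable complex with BAG3, was at 15.8 FPKM under static culture and 22.7 FPKM under FSS through its single listed transcript. Its log2 ratio of 0.50, or 1.42-fold, lay just short of the mark and was 0.73 after centring.

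CRYAB, or alpha-B-crystallin, a small heat shock protein of lens and muscle, was near the lower limit of the table. It was at 0.260 FPKM under static culture and 2.22 FPKM under FSS, a log2 ratio of 1.35. None of its 5 listed transcripts reached 1 FPKM in either library, and CRYAB-203 and CRYAB-205 were at 0.920 and 0.848 FPKM in FSS cells. In static cells CRYAB-203 was the sole transcript above 0, at 0.260 FPKM, and the others were listed at 0. With a pseudocount of 5 FPKM the log2 ratio was 0.46, within 1.5-fold, so that its place past the mark rests on very low values.

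HSPB11 carries a heat shock protein name but is the intraflagellar transport subunit IFT25, which moves cargo in cilia together with IFT27. HSPB11 was at 36.4 FPKM under static culture and 32.3 FPKM under FSS, a log2 ratio of -0.17, which became 0.065 once centred. Its main transcript HSPB11-201 was at 32.6 and 30.1 FPKM. The minor form HSPB11-204 was at 1.19 FPKM under static culture and 0.248 FPKM under FSS, and HSPB11-203 and HSPB11-202 were at 1.57 and 1.02 FPKM in static cells and 1.33 and 0.577 FPKM in FSS cells. All 4 transcripts were thus lower in FSS as deposited, by small amounts in FPKM. HSPB1 made up 76.3% of the FPKM of HSPB1, CRYAB, HSPB8 and HSPB11 in static cells and 81.7% in FSS cells, and HSPB11 16.4% and 10.3%.

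BAG3 and its small heat shock partners did not change in proportion. In static cells there were 2.29 FPKM of BAG3 for each FPKM of HSPB8, and in FSS cells 12.5. HSPB1 was 4.68 times as abundant as BAG3 in static cells and 0.899 times in FSS cells. By contrast the ratio of HSPB1 to HSPB8 was 10.7 in static cells and 11.3 in FSS cells.

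At the level of transcripts, 37 of the 44 reached 0.5 FPKM in a library, of which 8 were at least 1.5-fold higher and 4 at least 1.5-fold lower. Among all 30339 such transcripts 18.4% were higher and 27.9% lower. Of the 8, BAG3-201, BAG3-202 and HSPB1-201 were the ones above 5 FPKM. The remaining ones, CRYAB-203, CRYAB-205, BAG1-206, BAG6-249 and BAG6-250, were at or under 1.31 FPKM in both libraries. The 4 lower transcripts were BAG5-203, BAG6-236, BAG6-241 and HSPB11-204. BAG5-203 was at 1.69 FPKM in static cells and listed at 0 in FSS cells, while BAG5-201, of nearly the same length in GENCODE 29, was at 10.8 and 10.0 FPKM, so the lower sum of BAG5 came mostly from the minor form. An exact 0 can be a failed estimate in a table of this kind. BAG1-210, with 56.3% of BAG1 in static cells, was at 17.0 and 16.2 FPKM, and BAG1-208 at 10.2 and 9.51 FPKM. The other BAG1 forms past 1 FPKM, BAG1-211 and BAG1-207, were at 1.84 and 1.18 FPKM in static cells and 2.15 and 1.60 FPKM in FSS cells.

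BAG6 had the most forms, with 19 transcripts listed and 13 past 1 FPKM, and they did not move together. BAG6-235 was at 14.5 FPKM under static culture and 16.1 FPKM under FSS, and was the most abundant form in FSS cells. BAG6-245 was at 15.1 and 10.7 FPKM, BAG6-237 at 11.99 and 8.44 FPKM, and BAG6-234 at 9.93 and 7.59 FPKM. The single form past 1.5-fold among those above 2 FPKM was BAG6-236, at 4.72 FPKM under static culture and 2.07 FPKM under FSS, a log2 ratio of -0.90. BAG6-244 was at 6.93 and 5.81 FPKM and BAG6-247 at 4.09 and 4.66 FPKM. Of the 13 forms 6 were lower and 7 higher by any amount, and by its share of the gene BAG6-235 went from 19.2% to 24.6%. These forms overlap for most of their length, and each value depends on how reads were divided among them.

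**Figure D4:**
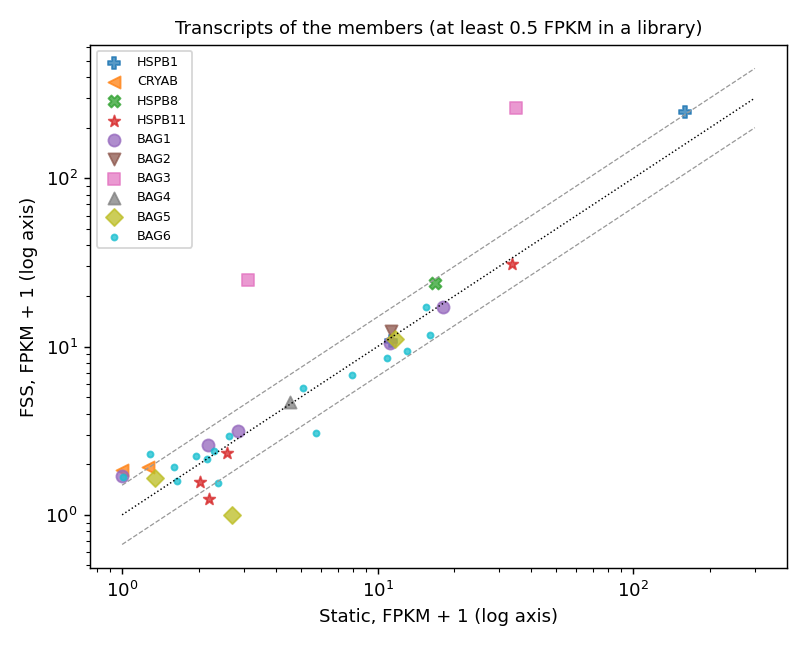
Each of the 37 member transcripts with at least 0.5 FPKM in a library, static against FSS, as FPKM + 1 on log axes, with a symbol for each gene. The dotted line marks equal levels and the dashed lines 1.5-fold; the 2 BAG3 transcripts stand far above the band and nearly all others lie within it or at low levels.

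Most BAG proteins act on HSP70, so the HSP70s and the other exchange factors were examined beside them. The 7 cytosolic HSP70 genes had a median log2 ratio of 1.68, and 5 of them were past 1.5-fold upwards and 1 downwards (6 and 0 once centred). The 1 gene past it downwards was under 1 FPKM in both libraries. By the same fold 10.5% of all genes were higher and 29.5% lower (17.8% and 17.9% once centred). With lists this short nothing is read from their counts beside these shares. HSPA6, a strictly inducible HSP70, was at 0.307 FPKM under static culture and 262 FPKM under FSS. HSPA1A and HSPA1B, inducible and near-identical copies whose reads cannot be divided with certainty, had log2 ratios of 3.59 and 3.78. HSPA1L, their testis-enriched relative, had one of 1.68 on low levels, at 1.00 FPKM under static culture and 5.43 FPKM under FSS. HSPA1A, HSPA1B and the constitutive HSPA8 summed to 705 FPKM under static culture and 4868 FPKM under FSS. Against 100 FPKM of these, BAG3 was at 5.11 FPKM under static culture and 5.85 FPKM under FSS. All 6 BAG genes together, with BAG6 included, were at 23.9 and 8.34 FPKM. The figure for BAG3 depended on which HSP70 was taken, since BAG3 was at 13.0 and 7.91 FPKM for 100 of HSPA1A and HSPA1B, and at 8.43 and 22.4 FPKM for 100 of HSPA8. Among 8 other exchange factors the median was 0.63, with 4 higher and 0 lower (6 and 0 once centred). HSPH1, an HSP110 that is itself heat inducible, was at 33.7 and 210 FPKM, GRPEL2 and GRPEL1, of the mitochondrial HSP70, had log2 ratios of 1.61 and 0.72, and HSPA4L one of 1.19.

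Partners of BAG3 in autophagy moved in both directions. The median of the 14 genes past 0.5 FPKM was 0.41, with 6 higher and 2 lower (7 and 1 once centred). Of all genes 10.5% were higher and 29.5% lower (17.8% and 17.9% once centred). The list was short and chosen with earlier results of these data known, so nothing is read from its counts. DNAJB1, an HSP40 that delivers clients to HSP70, was at 89.2 FPKM under static culture and 984 FPKM under FSS, and SQSTM1, the autophagy receptor p62, at 149 and 792 FPKM. AMOTL2, an angiomotin that the WW domain of BAG3 can bind, was at 6.64 and 42.5 FPKM. AMOTL1, an angiomotin of the same list of BAG3 partners, was at 3.50 and 1.56 FPKM. SYNPO, an actin-binding relative of the BAG3 partner synaptopodin-2, was at 9.40 and 1.70 FPKM. STUB1, which encodes CHIP, the ubiquitin ligase of the same pathway, was at 21.0 and 14.8 FPKM, which is 58.3 FPKM for 100 of BAG3 in static cells and 5.19 in FSS cells. HSF1 was at 14.7 FPKM under static culture and 12.9 FPKM under FSS and HSF2 at 7.08 and 7.20 FPKM. Of the list of HSF1, HSF2, HSF4 and HSBP1, of which the last encodes a protein that binds HSF1, 0 of 4 genes were past 1.5-fold (1 higher once centred), and their median was 0.056.

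For the partners of BAG6 and HSPB11 the background is that 29.5% of all genes were lower as deposited and 17.9% once centred, and with lists this short nothing is read from their counts beside it. The 8 genes of the BAG6 complex and of the insertion of tail-anchored proteins had a median of -0.32, with 0 higher and 3 lower (2 and 2 once centred). WRB and CAMLG, which form the receptor in the endoplasmic reticulum membrane, were at 7.62 and 26.8 FPKM in static cells and 2.05 and 13.5 FPKM in FSS cells. UBL4A, a subunit of the BAG6 complex, was at 30.8 and 19.7 FPKM. The 15 subunits of the IFT-B complex had a median of -0.24, close to that of all genes, with 0 higher and 6 lower (0 and 5 once centred). IFT27, the direct partner of HSPB11, was at 10.5 FPKM under static culture and 2.24 FPKM under FSS, so that there were 28.97 FPKM of IFT27 for 100 of HSPB11 in static cells and 6.93 in FSS cells. IFT81, IFT172 and TTC30B had log2 ratios of -1.10, -0.86 and -0.89, of which TTC30B rests on low values, at 1.47 FPKM under static culture and 0.333 FPKM under FSS. HSPB11 itself lay within 1.5-fold while its partner did not.

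**Figure D5:**
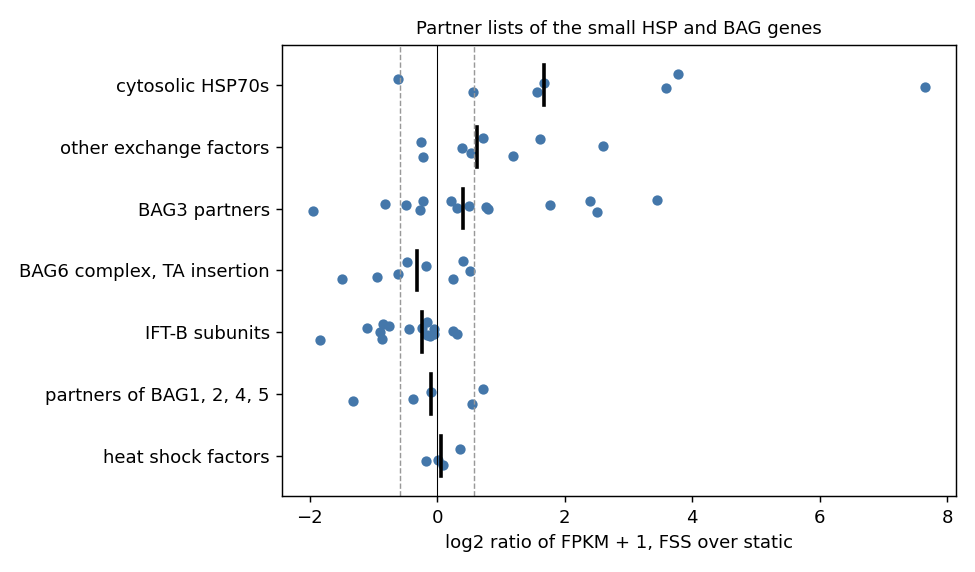
Log2 ratio of FPKM + 1, FSS over static, for each gene of the partner lists with at least 0.5 FPKM in a library (points, spread vertically at random) and the median of each list (black bars), with dashed lines at 1.5-fold. The cytosolic HSP70s lie farthest to the right, with a median of 1.68 and HSPA6 at 7.65, and the BAG6 complex and IFT-B lists have medians of -0.32 and -0.24.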

How the data were processed

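Total RNA of HepG2 cells, FSS (8 h) and static, was sequenced on an Illumina HiSeq instrument, with 1 library per group. The authors deposited FPKM per transcript, estimated with StringTie and extracted with Ballgown. The submitters' processing notes also name cutadapt, HISAT2 2.0.5, STAR 2.5.2b and hg19, and strand was not given in the sources used here. FPKM are relative to each library's mapped fragments, counts could not be recovered from them, and depth is unknown. Columns not tied to a sample numbered 0.

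Transcripts were summed by symbol, genes with at least 0.5 FPKM in a library were kept, and a pseudocount of 1 FPKM and a fold of 1.5 were used. Transcripts were matched to GENCODE 29 by name alone, and the annotation release behind the table was not given in the sources used here, so forms may differ. Members and gene lists were chosen with earlier results of these data known. All members were named, with their transcripts of at least 1 FPKM, and up to 4 genes per list past 1.5-fold by size. Others (HSF1, HSF2, HSF4, HSBP1, HSPA8, STUB1, AMOTL1, the cell type markers, transcripts under 1 FPKM and the genes overlapping members) were named after their values were seen. A list of 7 further small heat shock proteins was not analysed here because 0 were listed, and in the list of partners of BAG1, BAG2, BAG4 and BAG5 5 genes are described and the others are not reported here. Alternatives were pseudocounts of 0.1 and 5 FPKM, centring, rescaling to 1000000, the highest transcript, transcripts of at least 0.5 FPKM, no filter, a filter at 5 FPKM and a fold of 2. Sequence motifs were chosen after the windows were seen. Scripts ran in Python 3.11.15 with pandas 2.3.3 and numpy 2.4.6, and plots were made in matplotlib 3.10.9.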

Additional observations from a re-analysis of the deposited data

How the results depend on the processing

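With 1 library per group, the spread between cultures is unknown and differences of the size of HSPB1 or HSPB8 have no replicate check. No paired analysis was possible because each group had 1 library. BAG3 was at least 1.5-fold higher under every alternative tried, with log2 ratios from 2.82 to 3.18. HSPB1 lay between 0.59 and 0.83 and was short of the mark at a fold of 2. CRYAB lay between 0.46 and 2.69, was within 1.5-fold with a pseudocount of 5 FPKM, and was left out by a filter at 5 FPKM, as was BAG4. HSPB8 lay between 0.42 and 0.73 and passed the mark after centring alone, where the median of members was 0.32. Of 88 alternative values of member genes, 85 kept their side of the mark, 2 fell short of it and 1 passed it, and 0 called values changed sign. Of 171 alternative values of counts and medians over members and lists, 20 moved. A count was called moved if it changed by more than 1.5 times or to or from 0, and the median if it changed by more than 0.1. Lower IFT-B subunits numbered 2 with a pseudocount of 5 FPKM or at a fold of 2 and 9 by the highest transcript (at 1.5 times, not past it), beside 6, and lower genes of the BAG6 list numbered 1 at a fold of 2, beside 3. Of 90 alternative values of transcripts, 81 kept their side, 7 fell short and 2 passed it.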

Other observations

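The 5 partners of BAG1, BAG2, BAG4 and BAG5 described here had a median log2 ratio of -0.092, with 1 higher and 1 lower by 1.5-fold or more (2 and 1 once centred). Of all genes 10.5% were higher and 29.5% lower (17.8% and 17.9% once centred), and nothing is read from counts over so few genes. TNFRSF1A, the TNF receptor bound by BAG4, was at 44.1 FPKM under static culture and 73.0 FPKM under FSS. PINK1, a mitochondrial kinase linked to BAG2, was at 36.6 FPKM under static culture and 14.0 FPKM under FSS.

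Several members overlap genes on the opposite strand in GENCODE 29, and without strand the reads of overlapping parts cannot be told apart. KLC1, which overlaps BAG5, was at 22.7 FPKM under static culture and 34.0 FPKM under FSS. LSM1, which overlaps BAG4, was at 10.5 and 13.1 FPKM, and RAB23, which overlaps BAG2, at 5.07 and 4.15 FPKM. APOM and SPINK4, which overlap BAG6 and BAG1, were at 1.22 and 1.24 FPKM in static cells and 3.02 and 1.87 FPKM in FSS cells. CRYAB overlaps HSPB2, C11orf52 and HSPB2-C11orf52 on the opposite strand, for which no level was listed. HSPB8 overlaps a pseudogene on the same strand and an antisense gene, also without a listed level. BAG3 and HSPB1 had no overlapping gene there.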
